A study of Papio anubis with 40 samples.

Results

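The fragments described here are 5′ pieces of transfer RNA (tRNA) of 20 to 36 nt that open with a run of at least 4 guanines and belong, by their sequence code, to the alanine and cysteine tRNAs. They were chosen by sequence and length. The code in the fragment's identifier had to hold the alanine and cysteine pattern. The deposited read had to begin with 4 or more guanines, and its length had to be 20 to 36 nt. Of 58587 fragments with an identifier, 687 met the rule (1.17%), and they held 137518 of 130892201 counts (0.105%). The first 4 characters of the code, which spell the first 10 bases, split them into 39 groups, named below by those characters (RK9P, RKVP, R29P and so on). All 687 were alike at bases 11 to 20, so the groups differ only in bases 5 to 10.

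Serum (0.5 mL per draw) came from 8 olive baboons (Papio anubis) in which endometriosis was induced by placing menstrual tissue in the peritoneal cavity at laparoscopy, with lesions checked by laparoscopy and histology. Each animal was drawn before inoculation, which is the baseline (month 0), and at months 3, 6, 9 and 15, which gave 40 libraries of small RNA, 8 per month. All groups consist of the same animals, labelled as receiving no treatment, and no animal went without inoculation, so what followed from the lesions, the surgery, age or anything else that changed between draws cannot be told apart. The sources used here do not give the animals' ages or sex. Serum is cell-free, so a level reflects release, decay and protection of a fragment together, and these cannot be told apart either.

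In stressed cells a nuclease, mainly angiogenin, cleaves tRNAs in the anticodon loop, and the 5′ pieces of a few tRNAs are common in blood. Alanine and cysteine tRNAs stand out among them because their 5′ ends begin with a run of guanines, the terminal oligoguanine motif. In human cells such 5′ pieces can assemble into G-quadruplexes, stacked structures of paired guanines, and together with the protein YB-1 they displace the cap-binding complex eIF4F from messenger RNA and lower translation. In alanine tRNA with the anticodon AGC the first anticodon base is deaminated to inosine, which sequencing reads as guanine.

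The sequences below are the most abundant fragment of each of the 6 groups with the most counts and, for RKVP and R29P, a second one that shows a different 3′ part. They are DNA letters as deposited, 5′ to 3′, with the opening run of guanines in capitals.
tRF-30-RK9P4P9L5HMV: GGGGGtgtagctcagtggtagagcgcgtgc
tRF-30-RKVP4P9L5HMV: GGGGGtatagctcagtggtagagcgcgtgc
tRF-32-RKVP4P9L5FZU3: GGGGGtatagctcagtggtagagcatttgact
tRF-30-R29P4P9L5HJV: GGGGatgtagctcagtggtagagcgcatgc
tRF-30-R29P4P9L5HMV: GGGGatgtagctcagtggtagagcgcgtgc
tRF-30-RK9O4P9L5HMV: GGGGGtgtaactcagtggtagagcgcgtgc
tRF-30-RK9S4P9L5HMV: GGGGGtgtcgctcagtggtagagcgcgtgc
tRF-30-RKMP4P9L5HMV: GGGGGcgtagctcagtggtagagcgcgtgc
One of them dominated. The RK9P fragment of 30 nt, tRF-30-RK9P4P9L5HMV, held 90876 of the 137518 member counts. The RK9P group as a whole held 110886 counts (80.6%) in 170 fragments, RKVP 16926 (12.3%) in 148, R29P 5479 (3.98%) in 116 and RK9O 1280 (0.931%) in 13. RK9S (616 counts), RKMP (538), RK98 (386) and RKXP (376) followed, and each of the remaining groups was smaller. A run of exactly 5 guanines was carried by 489 fragments with 95.8% of the counts, a run of 4 by 186 with 4.15%, and runs of 6 or 7 by 12 fragments between them (7 and 5), with 26 and 72 counts.

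Most members were rare. A total count of 1 over all libraries was found for 229 of the 687, 188 reached 10 counts, and 4 were seen in every library. The filter on low counts that precedes the tests kept 29 members, which held 93.2% of the member counts: 13 of 170 in RK9P, 8 of 148 in RKVP, 3 of 116 in R29P, and 1 each in RK9O, RK9S, RKMP, RK98 and RKXP. At the borders of the rule, 13 members were of 20 nt (432 counts), while 10 fragments of 19 nt (485 counts) and 19 of 18 nt (1763 counts) matched the start of a member and were left out as too short. At the upper border there were 25 members of 34 nt (569 counts), 7 of 35 nt (39 counts) and 0 of 36 nt. With the same code but 3 guanines there were 34 fragments with 353 counts.

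The label was checked against reads that reach the anticodon, which lies at bases 33 to 35 of these fragments. Over all RK9P fragments that long, base 33 was G in 65 counts, T in 53, A in 1 and C in 1. With the common 3′ part, GCGTGCTT at bases 25 to 32, it was G in 59 counts, T in 3, A in 1 and C in 1, whereas ACATGCTT had T in 29 counts and GCATGCTT, the form common in R29P, T in 20. The 5 RK9P counts that covered all 3 anticodon bases had the common 3′ part and read GGC, which is how an AGC anticodon with inosine is read. Among RKVP fragments with the other 3′ part, base 33 was G in 1029 counts, T in 15 and A in 3, and the counts that covered the anticodon read GCA, the anticodon of cysteine, in 17 cases, GCG in 6 and GCT in 6. R29P had T in 47 counts and C in 2 at base 33, and TGC in 12 counts and CGC in 1 over the anticodon, both alanine anticodons. A longer read is shown for RKVP and for R29P, with bases 33 to 35 in capitals.
tRF-47-RKVP4P9L5FZUNF56FK5: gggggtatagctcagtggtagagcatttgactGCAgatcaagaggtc
tRF-40-R29P4P9L5HJVZV7L: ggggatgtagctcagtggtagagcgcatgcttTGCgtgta
Each of these was seen as 1 count. By the anticodon, the few reads that cover it were alanine for R29P and for RK9P with the common 3′ part, and mostly cysteine for RKVP with the other 3′ part. RK9P fragments with T at base 33 were not read through the anticodon.

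RKVP could be divided by bases 25 and 26, a division made after the sequences were seen, so no test was run on it. Bases GC, as in the common RK9P fragment, are called the alanine tail, and AT, as in tRF-32-RKVP4P9L5FZU3, the cysteine tail. Of the 16926 RKVP counts, 6696 (39.6%) in 72 fragments had the cysteine tail and 4610 (27.2%) in 28 had the alanine tail. Another 5413 (31.98%) in 21 fragments were under 26 nt and did not show both bases, and 207 (1.22%) in 27 had other bases. Of those under 26 nt, tRF-25-RKVP4P9L5F (2259 counts) has A at base 25, as in the cysteine tail. Where longer RKVP fragments had A there, bases 21 to 30 mostly read GAGCATTTGA (5077 counts), beside GAGCACGTGC (101 counts). RK9P was alanine-tailed for 96.5% of its counts and R29P for 85.0%. Within R29P the stretch from base 21 to base 30 was GAGCGCATGC in 57.3% of counts of fragments long enough to show it and GAGCGCGTGC, the RK9P form, in 25.4%.

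Where the fragments end differed between the alanine and the cysteine forms. RK9P ended at base 30 in 85.95% of its counts, with 5.16% at base 31 and 1.92% at base 32. The alanine-tailed RKVP fragments ended at base 30 in 89.76%. The cysteine-tailed RKVP fragments ended at base 30 in 1.45% and at base 32 in 51.27%, with 8.90% at base 31, 7.48% at base 33 and 8.11% at base 34, so that the commonest cysteine fragment stops directly before the anticodon. R29P was more spread, with 43.64% at base 30 and 20.04% at base 31. The tail classes of RKVP hold only fragments of 26 nt or more, whereas RK9P and R29P are counted from 20 nt. RKVP also had 2777 counts at 24 nt and 2303 at 25 nt, which are in neither tail class, so the shares of the tail classes leave out shorter ends. For comparison, over 39 libraries with at least 20 RK9P counts, 84.3% ± 5.68 (SD) of RK9P counts were of 30 nt. Over all 40 libraries the share of 30 nt was 72.3% ± 4.82 for the 5′ fragments of glycine tRNA with anticodon GCC, 19.5% ± 3.22 for those with CCC, 14.1% ± 4.07 for lysine and 2.21% ± 0.753 for valine. These comparison fragments were picked by a code pattern for each tRNA, so other fragments of the same amino acid can lie outside them. The RK9P share of 30 nt ran from 56.4% to 90.4%.

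**Figure D1:**
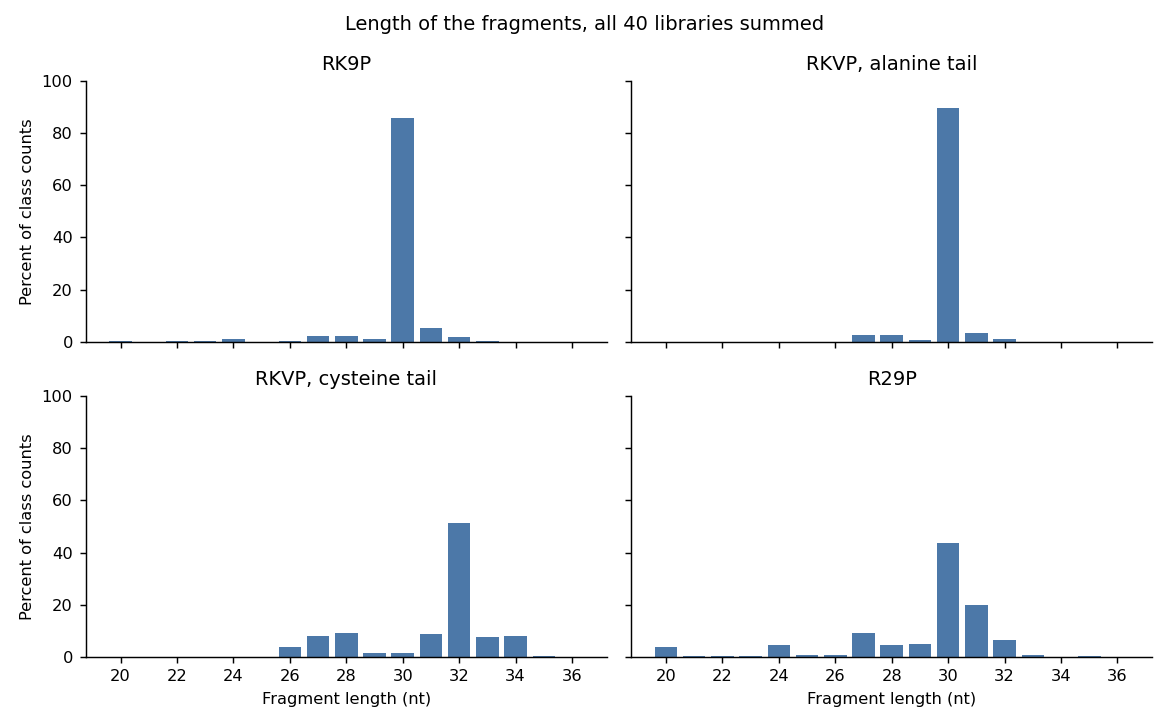
Share of counts (percent, vertical axis) at each fragment length (nt, horizontal axis) for RK9P, RKVP with the alanine tail, RKVP with the cysteine tail and R29P, with the 40 libraries summed. The tail classes of RKVP hold only fragments of 26 nt or more. The alanine-tailed classes peak at 30 nt (85.95% of RK9P and 89.76% of alanine-tailed RKVP), the cysteine-tailed class at 32 nt (51.27%), and R29P is split between 30 nt and 31 nt.

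The shallowest library, PA8001 at month 0, had 198840 counts in all and the deepest 6245450, and member counts ran from 39 in that shallow library to 12286 (PA8873, month 3). Levels are given as CPM, counts per 1000000 of the library's own total, and 3 counts, the limit that a count of 0 allows, correspond to 0.480 to 15.1 CPM depending on the library. Since it is not given whether counts were collapsed by molecular identifier, limits and intervals cover counting error only. At month 15, the libraries from PA8001 and PA8003 were singled out by earlier results of these data. Without both of them, 0 members passed in each comparison described below.

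The level of RK9P was spread more widely between animals than within an animal. Over the 8 animals RK9P ran from 90.5 CPM (PA8001) through a median of 523 to 2019 (PA8873) at month 0, and from 240 through 781 to 2530 at month 3. It ran from 174 through 724 to 1363 at month 6, from 370 through 601 to 1311 at month 9 and from 165 through 562 to 1560 at month 15. The months overlapped widely, and their means were 833 ± 683 CPM (SD, n = 8), 933 ± 708, 748 ± 476, 690 ± 313 and 635 ± 411 in that order. The animal PA8873 had the highest level at 4 of the 5 draws and was second to PA8914 at month 6. Its mean over the 5 draws was 1740 ± 531 CPM, against 978 for PA8835, 961 for PA8914 and 305 ± 113 for PA8003, the lowest. On a log2(CPM + 1) scale the SD between animals was 0.89 and the SD within an animal over its draws 0.61.

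The commonest fragment, tRF-30-RK9P4P9L5HMV, followed that order, as it must as the bulk of its group. It had 90.5 CPM at the lowest, 415 at the median and 1705 at the highest at month 0, and 119, 421 and 1282 at month 15. All 8 animals were lower at month 15 than at month 3, where the median was 641 CPM, and 4 of 8 were lower than at month 0. The log2 change from month 3 to month 15 was -0.83 ± 0.394 (SE) and did not pass (edgeR's quasi-likelihood test with Benjamini-Hochberg adjustment, adjusted p = 0.138).

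Cysteine-tailed RKVP had the opposite balance, with an SD of 0.79 between animals and 1.32 within an animal. It ran from 9.29 CPM through a median of 38.1 to 161 (PA8872) at month 0 and from 11.5 through 30.1 to 67.5 at month 3. At month 6 it ran from 6.95 through 19.7 to 137 (PA8914), and at month 9 from 5.16 through 15.8 to 74.3 (PA8914). At month 15 it ran from 13.5 (PA8912) through 63.8 to 511 (PA8001). It was higher at month 15 than at month 9 in 8 of 8 animals and than at month 6 in 8 of 8, than at month 3 in 6 and than at month 0 in 5. The month 15 mean of 126 ± 166 CPM (SD, n = 8) was 71.2 without PA8001, against 22.5 ± 21.7 at month 9 and 60.3 ± 61.3 at month 0. These sums were given no test, since the division was made after the data were seen.

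The alanine-tailed RKVP fragments did not share that course. Their means were 26.8 ± 16.2, 47.9 ± 30.6, 35.6 ± 26.5, 29.5 ± 11.5 and 35.1 ± 17.6 CPM from month 0 to month 15 (SD, n = 8), and the ranges of all 5 months overlapped. As a share of RKVP counts, cysteine-tailed fragments were 36.7% ± 18.2 at month 0, 27.9% ± 10.6 at month 3, 30.9% ± 16.6 at month 6, 26.6% ± 10.9 at month 9 and 44.6% ± 16.9 at month 15. R29P means lay between 36.2 ± 10.5 (month 6) and 45.7 ± 23.4 CPM (month 15). RK9O, RK9S and RKMP were low, with month means of 6.88 to 11.9, 4.40 to 5.23 and 3.59 to 4.51 CPM. These means lie below the limit of 15.1 CPM in the shallow month 0 library of PA8001, where all 3 groups were at 0.

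**Figure D2:**
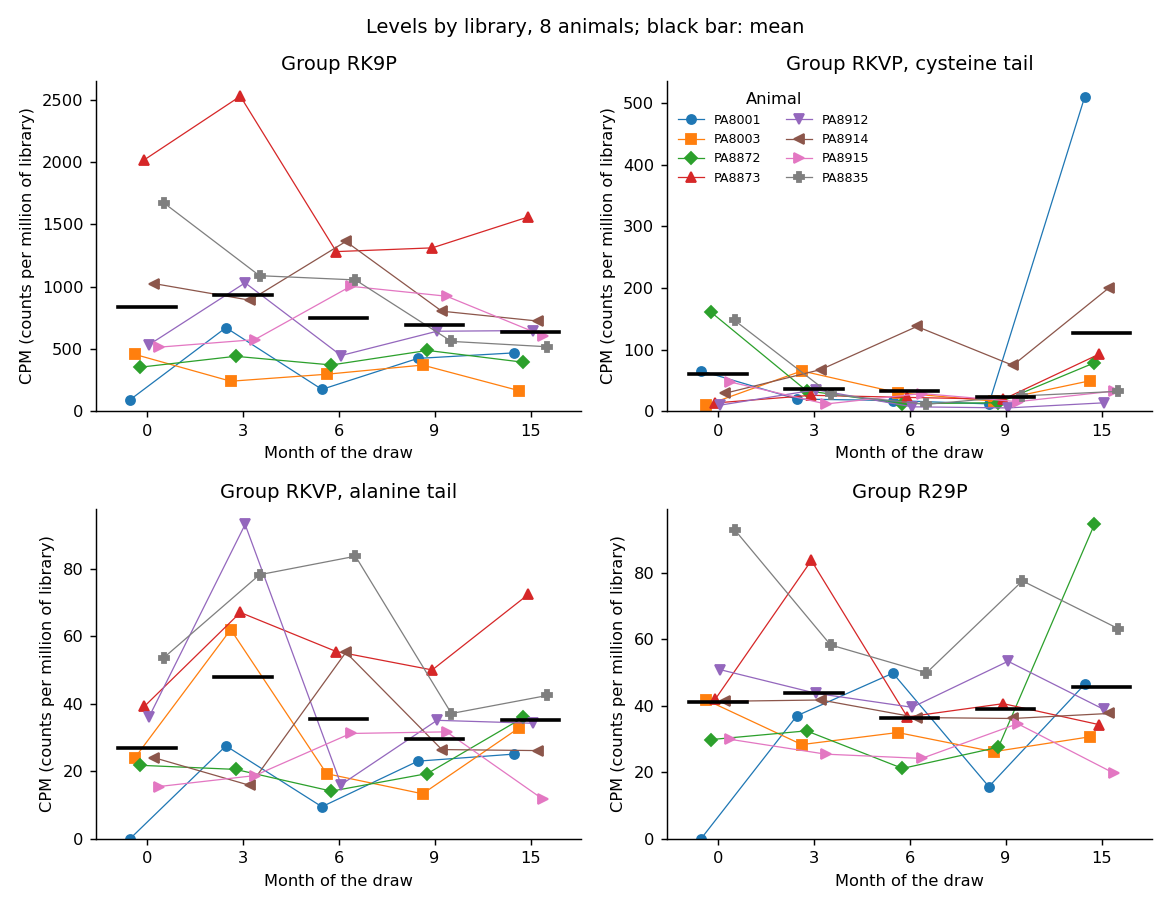
Level in each library (CPM, vertical axis, from 0) against the month of the draw, with 1 line and marker per animal and a black bar at the mean of the 8 animals, for RK9P, RKVP with the cysteine tail, RKVP with the alanine tail and R29P. PA8873 lies highest for RK9P at 4 of 5 draws, and the cysteine-tailed fragments of PA8001 reach 511 CPM at month 15, where the other 7 animals lie between 13.5 and 200.03 CPM.

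Against each animal's own baseline, the first question of the design, no member passed at any month. The fit covered 2447 fragments, and the share of them that passed was 0.0% at month 3, 0.0% at month 6, 0.0% at month 9, 2.37% (58 fragments) at month 15 and 0.0% for the mean of the 4 later months. Among the 29 tested members, 0 passed with edgeR in each of these 5 comparisons, 0 with DESeq2 and 0 with limma-voom. Unadjusted p-values under 0.05 were found for 0 members at month 3, 0 at month 6, 2 at month 9, 4 at month 15 and 0 for the mean. Over all 2447 tested fragments they were found for 73, 310, 201, 509 and 121, in the same order. Members chosen by being measurable are not all members, and the 658 that were not tested are described only by their counts.

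The median log2 change of the 29 tested members was 0.18 at month 3, beside 0.10 over all tested fragments. It was -0.20 at month 6 beside 0.01, 0.01 at month 9 beside 0.06, and -0.13 at month 15 beside 0.05, where 10 of the 29 were above 0. These comparisons share the month 0 libraries. At month 3 the smallest p among members belonged to tRF-30-RKVP4P9L5HMV, the alanine-tailed RKVP fragment, with 20.8 CPM at the median of month 0 and 39.9 at that of month 3. It was higher in 7 of 8 animals, with a log2 change of 0.81 ± 0.414 (SE) and an adjusted p of 0.999 in edgeR. At month 6 it belonged to tRF-25-RKVP4P9L5F, which shows only base 25 of the tail, with medians of 14.5 CPM at month 0 and 7.55 at month 6, a log2 change of -1.26 ± 0.698 and an adjusted p of 0.469 (edgeR), lower in 5 of 8 animals. At month 9 it belonged to the cysteine-tailed tRF-32-RKVP4P9L5FZU3, with medians of 18.7 CPM at month 0 and 8.28 at month 9, a log2 change of -1.72 ± 0.739 and an adjusted p of 0.582 (edgeR), lower in 5 of 8 animals. At month 15 it belonged to tRF-30-RK9P4P9L50MV, a form of the common RK9P fragment with 1 changed base, with medians of 3.20 and 1.51 CPM, a log2 change of -0.98 ± 0.393 and an adjusted p of 0.168 (edgeR), lower in 6 of 8 animals.

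Among the members with the next smallest p-values, tRF-24-RK9P4P9LH9 had a log2 change of 0.72 at month 3 and tRF-30-RK9P4P9L5HJV one of 0.76. At month 6, tRF-34-RKVP4P9L5FZUHM had -1.20 and tRF-32-RKVP4P9L5FZU3 -1.18, and at month 9 tRF-31-RKVP4P9L5FZUD had -1.66 and tRF-24-RKVP4P9LH9 -0.88. At month 15, tRF-29-RK9P4P9L5HH0 had -1.23 ± 0.518 and tRF-27-RKVP4P9L5FQ 1.65 ± 0.694, both with an adjusted p of 0.189 (edgeR). Of the 5 tested cysteine-tailed members, 5 were below 0 at month 6 (median -1.17), 4 at month 9 (median -1.54) and 1 at month 15 (median 0.48). These 5 share 1 opening and are not separate observations.

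Month 15 was then set against the earlier months after inoculation. These comparisons share the month 15 libraries, and each such library therefore enters all of them. The median log2 change over all tested fragments moved with the scaling: from month 3 to month 15 it was -0.11 with TMM and 0.01 with library totals alone. The median of the 29 tested members was -0.44 from month 3 to month 15, -0.09 from month 6 beside -0.06 over all tested fragments, and -0.21 from month 9 beside -0.04. Sequences of the passing members not yet shown are given here, with the guanine run in capitals.
tRF-34-RKVP4P9L5FZUHM: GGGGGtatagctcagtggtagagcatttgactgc
tRF-27-RKVP4P9L5FQ: GGGGGtatagctcagtggtagagcatt
tRF-32-RK9P4P9L5HMVQ: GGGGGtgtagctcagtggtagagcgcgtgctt
tRF-24-RK9P4P9LH9: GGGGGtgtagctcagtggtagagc
tRF-30-RK9P4P9L50MV: GGGGGtgtagctcagtggtagagagcgtgc
tRF-30-RK9P4P9LRHMV: GGGGGtgtagctcagtggtagggcgcgtgc

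Between months 9 and 15, 3 members rose and 0 fell, which is 10.3% of the 29 tested, against 30.6% of all 2447 fragments (18.2% higher and 12.4% lower). The longest of them, the cysteine-tailed tRF-34-RKVP4P9L5FZUHM, which runs into the anticodon, ran from 0 through a median of 1.04 to 6.72 CPM at month 9 and from 0.877 (PA8912) through 7.94 to 33.4 CPM (PA8001) at month 15. The months overlapped, but each of the 8 animals was higher at month 15, with a log2 change of 2.49 ± 0.714 (SE, edgeR, adjusted p = 0.0133). The fragment held only 521 counts over the 40 libraries. At month 9, 3 counts correspond to 0.480 to 3.37 CPM depending on the library, a range that holds its median. The rise passed in 15 of 17 alternative analyses (adjusted p from 0.00247 to 0.156). Up to 19 alternatives were run. Those that gave no value for a fragment, as where it failed the filter, are not counted here or below.

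The cysteine-tailed tRF-32-RKVP4P9L5FZU3, which ends just before the anticodon, ran from 1.03 through 8.28 to 31.9 CPM at month 9 and from 2.63 (PA8912) through 22.4 to 261 CPM (PA8001) at month 15. It was higher in 7 of 8 animals, with a log2 change of 2.20 ± 0.736 (SE, edgeR, adjusted p = 0.0246), and passed in 13 of 19 alternatives (adjusted p from 0.00453 to 0.284). The third was alanine: tRF-32-RK9P4P9L5HMVQ, the common RK9P fragment with 2 more bases, ran from 4.74 through 10.0 to 16.9 CPM at month 9 and from 9.94 through 16.6 to 79.9 CPM (PA8001) at month 15. It was higher in 7 of 8 animals, with a log2 change of 1.32 ± 0.488 (edgeR, adjusted p = 0.0394), and passed in 8 of 19 alternatives (adjusted p from 0.0167 to 0.504).

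All 5 tested cysteine-tailed members were above 0 between months 9 and 15, with log2 changes of 1.34 to 2.49 and a median of 1.68, beside a median of -0.04 over all tested fragments. Of the 13 tested RK9P members, 11 were below 0, with a median of -0.42. The members of each set share 1 opening, so they are not separate observations. Neither set had a test of its own, and the tails were divided after the sequences were seen. Each of the 3 passing members had its highest month 15 value in PA8001. Without that single library, a choice made after the data were seen, 0 members passed, and the log2 changes were 1.86 for tRF-34-RKVP4P9L5FZUHM (edgeR, adjusted p = 0.0511), 1.38 for tRF-32-RKVP4P9L5FZU3 (adjusted p = 0.123) and 0.71 for tRF-32-RK9P4P9L5HMVQ (adjusted p = 0.231). Leaving out all libraries of 1 animal at a time gave 1 passing member without PA8001, PA8003 or PA8873, 2 without PA8914 and 3 without any of the other 4.

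Between months 6 and 15, 5 members passed, 4 higher and 1 lower, which is 17.2% of the 29 tested, against 26.6% of all fragments (17.0% higher and 9.52% lower). The cysteine-tailed tRF-34-RKVP4P9L5FZUHM was again higher in 8 of 8 animals. Its month 6 levels ran from 0 through 1.59 to 4.08 CPM, and the log2 change was 2.15 ± 0.704 (SE, edgeR, adjusted p = 0.0227, passing in 14 of 17 alternatives with adjusted p from 0.0105 to 0.272). The shorter cysteine-tailed tRF-27-RKVP4P9L5FQ ran from 0 through 1.64 to 6.18 CPM at month 6 and from 0.421 through 4.40 to 40.2 CPM (PA8872) at month 15. It was higher in 6 of 8 animals, with a log2 change of 1.86 ± 0.692 (edgeR, adjusted p = 0.0437, passing in 6 of 18 alternatives with adjusted p from 0.0152 to 0.299).

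The other 3 were RK9P forms. The shortest, tRF-24-RK9P4P9LH9, which stops before the bases that tell the tails apart, ran from 2.54 through 4.80 to 7.21 CPM at month 6 and from 5.72 through 9.17 to 18.8 CPM at month 15. It was higher in 8 of 8 animals, with a log2 change of 1.09 ± 0.409 (SE, edgeR, adjusted p = 0.0454, passing in 6 of 18 alternatives with adjusted p from 0.0228 to 0.988). The longer tRF-32-RK9P4P9L5HMVQ ran from 2.82 through 9.90 to 25.1 CPM at month 6, with a log2 change of 1.38 ± 0.494 (edgeR, adjusted p = 0.0353, passing in 9 of 19 alternatives with adjusted p from 0.00964 to 0.408). It was higher in 7 of 8 animals. The variant tRF-30-RK9P4P9LRHMV, which has A22G counted from the 5′ end of the common fragment, ran from 1.59 through 5.13 to 8.77 CPM at month 6 and from 0 through 2.17 to 11.0 CPM at month 15. It was lower in 6 of 8 animals, with a log2 change of -1.12 ± 0.394 (edgeR, adjusted p = 0.0336, passing in 7 of 18 alternatives with adjusted p from 0.0146 to 0.341).

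Without the month 15 library of PA8001, 0 of these 5 passed: the log2 changes were 1.57 for tRF-34-RKVP4P9L5FZUHM (edgeR, adjusted p = 0.0924), 1.46 for tRF-27-RKVP4P9L5FQ (0.122), 0.86 for tRF-24-RK9P4P9LH9 (0.134), 0.87 for tRF-32-RK9P4P9L5HMVQ (0.139) and -0.97 for tRF-30-RK9P4P9LRHMV (0.0684). Leaving out 1 animal gave 1 passing member without PA8001 or PA8003, 2 without PA8872 or PA8914, 3 without PA8835 or PA8912, 4 without PA8915 and 6 without PA8873. The 30 nt and 31 nt RK9P fragments, between the forms of 24 and 32 nt, had log2 changes of -0.45 ± 0.399 (tRF-30-RK9P4P9L5HMV) and 0.08 ± 0.436 (tRF-31-RK9P4P9L5HMVE) and did not pass.

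Between months 3 and 15, 2 members fell and 0 rose, which is 6.90% of the 29 tested, against 11.1% of all fragments (7.19% higher and 3.92% lower). Both are 30 nt alanine forms with 1 base different from the common RK9P fragment. The RK9O fragment tRF-30-RK9O4P9L5HMV ran from 1.32 through 7.46 to 27.5 CPM at month 3 and from 0.260 through 4.46 to 17.8 CPM at month 15. It was lower in 8 of 8 animals, with a log2 change of -1.19 ± 0.393 (SE, edgeR, adjusted p = 0.0464). The RK9P variant tRF-30-RK9P4P9L50MV ran from 2.08 through 3.63 to 9.41 CPM at month 3 and from 1.04 through 1.51 to 3.07 CPM at month 15. It too was lower in 8 of 8 animals, with a log2 change of -1.34 ± 0.387 (edgeR, adjusted p = 0.0339).

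The first passed in 3 of 18 alternatives (adjusted p from 0.0132 to 0.472) and the second in 10 of 17 (adjusted p from 0.0123 to 0.379). Without the month 15 library of PA8001 the values were -1.26 (edgeR, adjusted p = 0.0579) for tRF-30-RK9O4P9L5HMV and -1.38 (adjusted p = 0.0403) for tRF-30-RK9P4P9L50MV. Leaving out all libraries of 1 animal gave 0 passing members without PA8003, PA8873, PA8914 or PA8915, and 1 without any of the other 4. Of the 13 tested RK9P members 11 were below 0 (median -0.74), while all 5 tested cysteine-tailed members were above 0 (median 1.15), and neither set had a test of its own.

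A joint test of all months found 1 member, tRF-34-RKVP4P9L5FZUHM (edgeR, adjusted p = 0.0483), against 16.2% of all fragments. With 1 animal left out, 1 member passed where that animal was PA8914, and 0 passed where it was any other. None of the 8 member openings passed the joint test, against 5.7% of all openings.

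**Figure D3:**
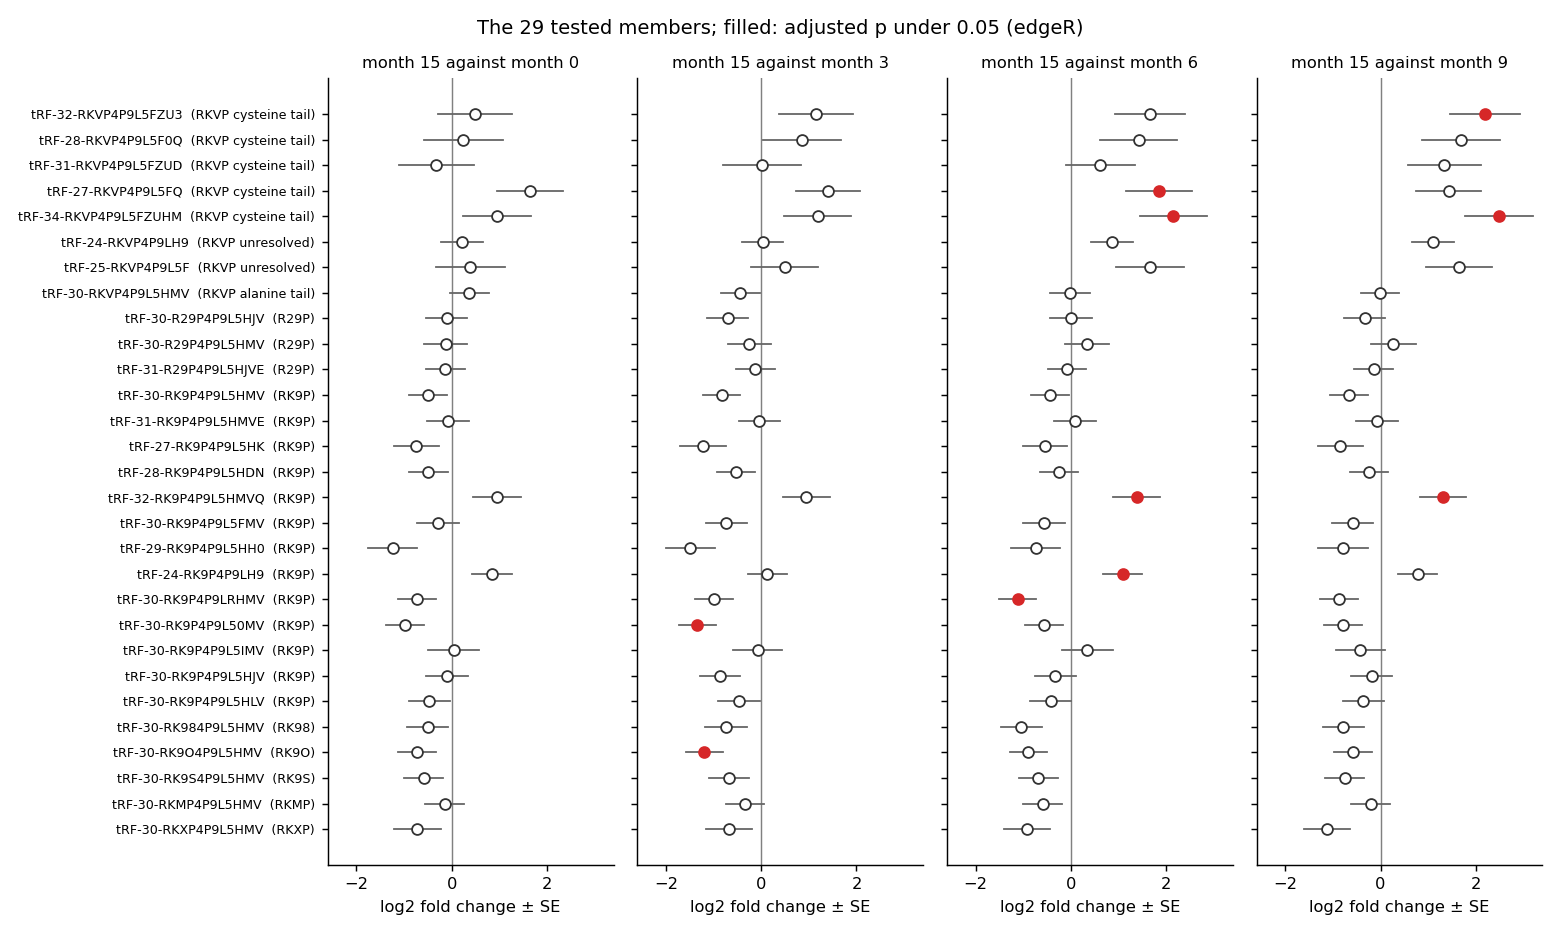
Log2 fold change (horizontal axis, with its SE as a bar) of each of the 29 tested members between month 15 and months 0, 3, 6 and 9, with filled points for an adjusted p under 0.05 in edgeR. The 5 cysteine-tailed members lie to the right of 0 in the month 9 panel (1.34 to 2.49), where 11 of the 13 RK9P members lie to the left. The members of each of these sets share 1 opening and are not separate observations.

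When fragments were summed by their first 20 bases, which merges lengths and tails, 684 openings were tested and 8 of them were member openings. None of the 8 passed against month 0 at any later month with edgeR, where 1.75% of all openings passed at month 15 and 0.0% at months 3, 6 and 9 and for the mean. The RK9P opening had a log2 change of -0.52 ± 0.390 (SE, edgeR, adjusted p = 0.573) at month 15 against month 0, RKVP 0.49 ± 0.484 (adjusted p = 0.677) and R29P -0.02 ± 0.341 (adjusted p = 0.974). RK9O had the smallest p of the 4, with -0.81 ± 0.336 (adjusted p = 0.245), and was lower in 6 of 8 animals.

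Between months 3 and 15 the RK9O opening fell, by 1.12 ± 0.332 on the log2 scale (edgeR, adjusted p = 0.0448), from 11.9 ± 9.63 to 6.88 ± 5.56 CPM (SD, n = 8), and it was lower in 7 of 8 animals. It was the only member opening that passed in that comparison, where 3.95% of all openings did and 1.75% were lower. It passed in 2 of 19 alternatives (adjusted p from 0.0270 to 0.199) and in 0 of the 8 fits that left out 1 animal. The RK9P opening had -0.76 ± 0.382 in the same comparison (adjusted p = 0.222). Between months 9 and 15 the RKVP opening was higher in 8 of 8 animals, with 1.33 ± 0.470 (edgeR, adjusted p = 0.0583), beside 11.5% of all openings passing. It passed in 7 of 19 alternatives (adjusted p from 0.0138 to 0.531) and had 0.81 (adjusted p = 0.212) without the month 15 library of PA8001. Between months 6 and 15 RKVP had 1.05 ± 0.476 (edgeR, adjusted p = 0.133), where 14.0% of all openings passed.

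The month 15 library of PA8001 had, of the 39 libraries with at least 20 RK9P counts, the lowest share of 30 nt among them, and of all 40 the highest cysteine share of member counts. Of its 895 RK9P counts, 56.4% were of 30 nt (95% Wilson interval 53.2% to 59.6%) and 34.6% of 31 nt or more, whereas the monthly mean share of 30 nt was 85.8% ± 2.11 (SD, n = 7), 85.7% ± 1.95, 85.4% ± 4.69 and 86.3% ± 2.29 at months 0, 3, 6 and 9. Over the 8 libraries of month 15 it was 78.4% ± 9.50, and RK9P fragments of 31 nt or more were 13.1% ± 8.85, against 7.49% ± 2.10 at month 9. Cysteine-tailed fragments made up 39.3% of that library's 2490 member counts (95% Wilson interval 37.4% to 41.2%), against a mean of 12.5% ± 12.3 (SD, n = 8) over month 15, 2.78% ± 2.08 over month 9 and 9.50% ± 12.1 over month 0. At month 0 the highest share was 33.3%, in the shallow library of the same animal (13 of 39 counts), and the next was 22.9% in PA8872.

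The members were set beside other 5′ fragments of the table in the same fit. Each tRNA list below holds the fragments of 20 to 36 nt with a given code pattern, such as 79MP9P9N for valine. Other fragments of the same amino acid can lie outside it, and the anticodons of these lists were not checked. Between months 9 and 15 the fit had 22 of 168 tested fragments of glycine tRNA (anticodon GCC) higher and 0 lower, 41 of 145 higher and 16 lower for glycine CCC, 49 of 243 higher and 4 lower for lysine, 37 of 153 higher and 3 lower for glutamate, and 27 of 155 higher and 56 lower for valine. Fragments of 20 to 36 nt with 4 or more guanines outside the rule, 931 in all with 16287 counts, had 1 higher and 1 lower of 15 tested. Over all 2447 tested fragments, 445 were higher and 304 lower. Which tRNAs the fragments outside the rule come from was not tested. The most abundant fragment that opens with 4 or more guanines and lies outside the rule, tRF-19-RKIP4OF4 with 29426 counts, is both too short (19 nt) and of another code. It reads GGGGGattagctcaaatgg.

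Many members are the common RK9P fragment with 1 base changed. All but 1 of the 90 possible single substitutions of tRF-30-RK9P4P9L5HMV were found (89), and together they held 17380 counts, or 19.1% of the count of the unchanged fragment; 48 of them are members. Positions are counted from 1 at the 5′ end, with the base of the common fragment first. The median over the 30 positions was 0.379% of the unchanged count, position 7 reached 4.55%, position 25 reached 1.80%, position 10 reached 1.37% and position 5 reached 1.06%. The largest single change was G7A, which is tRF-30-RKVP4P9L5HMV, with 4081 counts (4.49%), followed by G25A with 1153 (1.27%), G10A, which is tRF-30-RK9O4P9L5HMV, with 1081 (1.19%), and G5A, which is tRF-30-R29P4P9L5HMV, with 909 (1.00%). A9C, which is the RK9S fragment, had 521 counts, T6C, the RKMP fragment, 471, and C24A, which is tRF-30-RK9P4P9L50MV, 408. Whether such a form is another tRNA gene, a modified base misread by the reverse transcriptase or a sequencing error was not tested.

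The 4 largest changes were followed library by library. The G7A form was at 6.37% ± 5.47 (SD) of the unchanged count over 39 libraries, with a range of 1.99% to 31.1%. The highest share was in PA8003 at month 3, with 54.7 CPM of tRF-30-RKVP4P9L5HMV beside 176 CPM of tRF-30-RK9P4P9L5HMV. In the same animal at month 9 they were at 12.2 and 301 CPM. The G5A form was at 1.28% ± 1.11 (0% to 5.22%), a spread about as wide for its mean. The G10A form was at 1.11% ± 0.467 (0% to 2.20%) and G25A at 1.32% ± 0.460 (0% to 3.26%), narrower for their means.

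**Figure D4:**
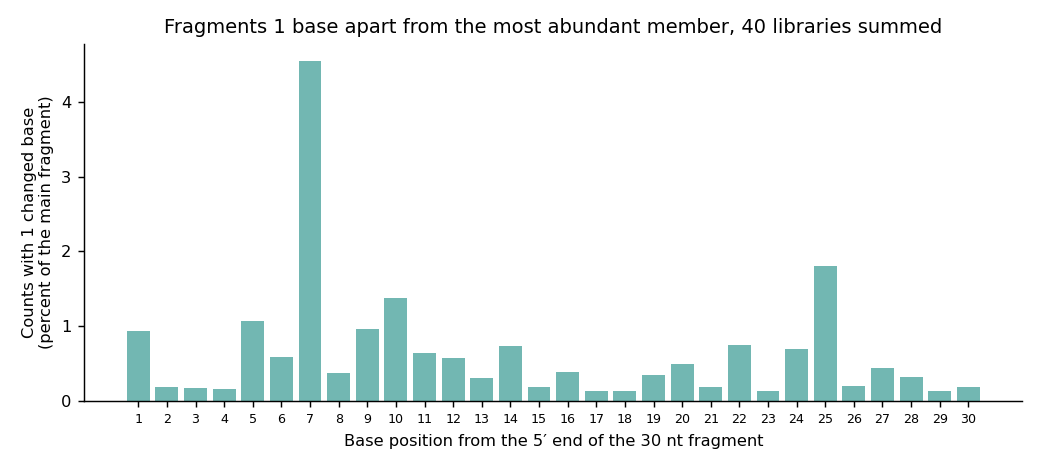
Counts of 30 nt fragments that differ from the most abundant member at 1 base, as a percent of that member's count (vertical axis, from 0), by base position from the 5′ end (horizontal axis), with the 40 libraries summed. Position 7 stands at 4.55% and position 25 at 1.80%, against a median of 0.379% over the 30 positions.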

How the data were processed

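The deposited table gives whole-number counts per distinct fragment sequence and library, unscaled, per the file headers and values; a second deposited table gives the sequences. Small RNA was prepared from total RNA (MagMAX kit, RNA integrity number of 7 or greater) by ligating adapters to both ends, with molecular identifiers assigned at cDNA synthesis, and sequenced on a NovaSeq X, per the labels' protocols. R 4.5.0, edgeR and limma are named, with no role, per the submitters' processing notes. The sources used here do not name the aligner, the tRNA reference, the mismatches allowed or any collapsing by molecular identifier. Of 60201 lines, 1614 without an identifier (0.0805% of counts, all with an unread base; 6 with 7 counts looked like members) were left out.

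Members were found by the rule on code, length and opening guanines; members and lists were chosen with earlier results of these data known. Tests used edgeR 4.0.16 in R 4.3.3 on the counts of all fragments in all 40 libraries: filterByExpr with a minimum count of 10, TMM (factors 0.458 to 1.93), a robust quasi-likelihood fit of month with the animals as blocks, two-sided, Benjamini-Hochberg adjustment over all features and a threshold of 0.05; a second fit used sums by the first 20 bases. Levels are CPM of library totals without TMM, although TMM-scaled CPM had been planned; log2 changes are TMM-scaled. The steps were tested on simulated data. The same 8 animals were drawn each month; deviations from month means correlated at 0.187 within and -0.0456 between animals (53 of 80 same-animal pairs above 0.1), and the coefficient of biological variation fell from 0.587 to 0.500 when the block was added. Alternatives were other scalings, DESeq2 1.42.0, limma-voom (limma 3.58.1), other filters, no block, and leaving out libraries or animals.

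Named were the 6 groups with the most counts, up to 4 abundant tested members of each, the 3 members with the smallest p in each comparison with month 0, since none passed there, and the called members of the month 15 comparisons. The animals are the replicates; fragments of different length from 1 opening share their source.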

Additional observations from a re-analysis of the deposited data

Results flagged for a closer look

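Levels of 9 groups and classes of fragments were examined at each of the 5 months, 45 sets of 8 libraries, for a highest or lowest library whose gap to the nearest other, as a share of the range, exceeded Dixon's 95% critical value. For independent sets of normally distributed levels, chance gives about 1 in 20 such sets, and 13 were found. The levels are untransformed CPM, every flag is a highest library, and the same animals recur. That rate therefore cannot be applied here, and the 13 are not an excess over it. All 13 sit in 3 animals. PA8873 held the highest level of RK9P at month 3 (2530 CPM; the other 7 at 240 to 1088) and month 15 (1560; 165 to 723), of all members together at month 3 (2889; 479 to 1344), of RK9O at month 9 (20.7; 1.46 to 7.85) and month 15 (19.0; 0.260 to 8.75), of RK9S at month 15 (13.5; 0.520 to 4.86) and of RKMP at month 9 (13.0; 0.640 to 4.56). PA8914 held the highest level of RKVP at month 6 (229; 35.0 to 121) and month 9 (157; 48.9 to 86.99) and of its cysteine-tailed part at month 6 (137; 6.95 to 29.9) and month 9 (74.3; 5.16 to 24.7). PA8001 held the highest level of RKVP at month 15 (753; 64.0 to 309) and of its cysteine-tailed part (511; 13.5 to 200.03). The sets overlap, since RK9O, RK9S and RKMP differ from RK9P by 1 base and the cysteine-tailed part belongs to RKVP.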

How the results depend on the processing

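All counts against month 0, for members and for openings, stayed at 0 under every alternative run, leaving out each animal included. The other counts moved, and the cause was not tested. Between months 3 and 15 the 2 members that fell became 1 with DESeq2's size factors in edgeR, 0 with library totals and 4 with DESeq2. With no filter, 687 members were tested and 1 passed, but as a rise, with 0 lower. With a minimum count of 50, only 9 members were tested and 0 passed. The count was 1 with no replicate block, 0 without PA8001 and PA8003 at month 15 and 1 without PA8001 alone at month 15. It was 0 with only the months compared in the fit, and leaving out 1 animal gave 0 to 1. Between months 6 and 15 the 5 members became, in the same order but without the fit with no filter, 3, 3, 8, 1, 3, 0, 0 and 1, and 2 with limma-voom; leaving out 1 animal gave 1 to 6. Between months 9 and 15 the 3 members became 7 with DESeq2, 1 with limma-voom, 0 without both of those libraries, 0 without the one of PA8001 and 1 with only the months compared; leaving out 1 animal gave 1 to 3, and the fit with no replicate block gave 3 again. The 1 member of the joint test became 6 with no filter and 0 with DESeq2's size factors in edgeR, library totals, limma-voom, a minimum count of 50, no replicate block and without those libraries; leaving out 1 animal gave 0 to 1. The 1 opening between months 3 and 15 became 0 under each of these except DESeq2 and the fit without the month 0 library of PA8001, and leaving out 1 animal gave 0 to 0. Between months 6 and 15 the 0 openings became 1 with DESeq2, and between months 9 and 15 1 with library totals, DESeq2, no filter, no replicate block or without the month 0 library of PA8001, with 0 to 1 when 1 animal was left out. The 11 changes of single members and openings that passed were refitted 199 times under the alternatives: 93 refits still passed, 106 did not, and 0 reversed. Of 3930 refits of changes that had not passed, 23 passed and 77 moved by more than their SE. With no replicate block, adjusted p-values in edgeR were 0.0270 and 0.0364 for tRF-34-RKVP4P9L5FZUHM against months 9 and 6, 0.0296 for tRF-32-RKVP4P9L5FZU3, 0.05003 and 0.106 for tRF-32-RK9P4P9L5HMVQ, and 0.186 for tRF-30-RK9O4P9L5HMV. Depth limits RK9O, RK9S and RKMP, which were at 0 counts in the shallowest library (PA8001, month 0); they were also under 3 counts in some libraries of PA8003.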

Other observations

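The 21 RKVP fragments under 26 nt do not show both tail bases. Together they had means of 46.9 ± 36.1, 49.3 ± 41.5, 24.5 ± 11.8, 22.4 ± 13.4 and 66.9 ± 63.6 CPM at months 0, 3, 6, 9 and 15 (SD, n = 8). They were higher at month 15 than at month 9 in 8 of 8 animals and than at month 3 in 4. Among them tRF-24-RKVP4P9LH9 and tRF-25-RKVP4P9L5F had log2 changes of 1.10 ± 0.438 and 1.65 ± 0.696 (SE) between months 9 and 15 in 8 of 8 animals each, with adjusted p-values of 0.0530 and 0.0668 in edgeR. R29P fragments of 20 to 25 nt made up 17.4% ± 17.8 of R29P counts at month 15 (SD, n = 8), with a range of 4.26% to 52.5%, against 8.50% ± 4.80 at month 9, with a range of 1.55% to 14.0%.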
